A study of Mus musculus with 8 samples.

Results

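The genes described here were 8 members of the Pitx, Six-type, Eya and Dach families, namely Pitx1, Pitx3, Six2, Six4, Eya1, Eya2, Eya4 and Dach1, read from 12 of the 41174 noncontrol probes of the array. They were found by gene name or, for older names, by the description of the probe. They were chosen with results of this same comparison known, so their own values and intervals are given as a description. Calls of members by limma are counted below, and nothing is read from them. RNA came from oviducts of female CD-1 mice. The 4 control mice were injected subcutaneously with corn oil on PND1–PND5 (postnatal days 1–5), and the 4 Gen-treated mice received genistein (Gen), an estrogenic compound of soy, at 50 mg/kg/day over the same days. All 8 mice underwent superovulation and mating when 6–8 weeks old, and oviducts were taken on GD2, which is gestation day 2, 48 hr after hCG, once the embryos had been removed. Each mouse gave 1 array, labeled with Cy3. The 4 control arrays shared 1 slide and the 4 Gen arrays the other, and the effects of slide and treatment cannot be told apart. The question was how the adult oviduct differs in gene expression after neonatal Gen.

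Pitx proteins are homeodomain transcription factors. Pitx1 acts in the hindlimb, the pituitary and the first branchial arch, and Pitx3 acts in the lens and in midbrain dopamine neurons. Six-family proteins are homeodomain factors that bind DNA and take Eya proteins as coactivators. Eya proteins do not bind DNA themselves and carry a phosphatase domain. Dach proteins are related to the Ski corepressors and can oppose Six-family and Eya proteins at shared targets. Together with Pax factors these families form a network that works in the eye, ear, kidney and muscle of the embryo.

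Each probe is a run of 60 bases, and the ones below carry the results that follow, since Pitx1 was read by 1 probe, and the probes of Eya1 and of Dach1 differed in signal or size of difference. They are given 5′ to 3′, with positions of the array design on mouse build mm7. Capitals mark the longest run that also occurs, on the same strand, in another noncontrol probe of the array.
Pitx1 (chr13:54912967-54913026, minus strand): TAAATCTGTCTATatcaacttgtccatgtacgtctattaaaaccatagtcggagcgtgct
Eya1, probe 1 (chr1:14351185-14351244, minus strand): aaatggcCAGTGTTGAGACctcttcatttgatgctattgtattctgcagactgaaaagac
Eya1, probe 2 (chr1:14352764-14352823, minus strand): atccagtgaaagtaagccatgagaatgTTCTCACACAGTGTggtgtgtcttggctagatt
Dach1, probe 1 (chr14:92138750-92138809, minus strand): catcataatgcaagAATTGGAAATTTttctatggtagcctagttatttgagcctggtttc
Dach1, probe 2 (chr14:92183226-92191932, minus strand): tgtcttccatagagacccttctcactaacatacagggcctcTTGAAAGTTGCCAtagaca
The longest run that Pitx1 shared with another probe was 13 bases. The second Dach1 probe spans more of the genome than its own length. Exons and untranslated regions are not given, since no annotation of mm7 was used.

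Signals below are linear intensities after each array was scaled to the same 75th percentile, and differences are Gen minus control on the log2 scale, with the standard error (SE) of limma and n = 4 mice per group. A probe is called detected on an array where the scanner software flagged it as well above background. The lowest scaled signal of a detected probe was 28.5–65.9 in controls and 14.5–20.9 in Gen-treated mice. The 7855 probes detected on no array had a median difference of −1.16, against −0.01 for the 24947 probes detected on all 8. The arrays correlated at r = 0.979–0.990 within groups and 0.970–0.984 between groups, over probes. The labelled tissue was borne out by its markers. Ovgp1, the oviduct-specific glycoprotein, averaged 517773 in the control group and 538265 in the Gen group. Foxj1, the regulator of motile cilia, averaged 53678 and 54789. None of the 7 secretory, 7 ciliated, 7 smooth muscle or 5 mesothelial and urinary markers was called at an adjusted p under 0.05.

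Pitx1 was the 1 member that went from background to a high signal. Its scaled signal was 12.8, 26.6, 13.8 and 6.02 in control mice 1 to 4 and 2703, 14234, 7156 and 4378 in Gen-treated mice 1 to 4. The groups did not overlap, with every Gen array above every control array. No control array detected it, although 2 of the 4 passed the scanner's less strict test of a positive and significant signal. In units of the scan before processing, the mean over the spot was 74.1–96.3 in controls against a local background of 57–64, and 2808–15634 in Gen-treated mice against 52–56. The control level therefore was only a limit, and in the main processing the lower bound of the Gen signal over it was 148-fold. This bound was 59.1-fold with normexp and 89.5-fold where signals under 65.9 were raised to that floor. The lower bound was taken against the lowest detected signal of each control array or the probe's own signal there, whichever was higher.

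That pattern of detection was seen in other probes, and the size of the bound was not. The lowest detected signal was 28.5–65.9 in controls and 14.5–20.9 in Gen-treated mice, so an equal signal could be detected in Gen-treated mice alone. The 2 directions of the pattern were thus not equally easy to meet. In all, 541 of 41173 probes (1.31%) were detected in none of the controls and in all 4 Gen-treated mice, and 2 probes (0.00486%) had the reverse pattern. Of the 536 with no missing value, 387 had Gen signals too low to give a bound above 1. Among the other 149, Pitx1 ranked 1, the next bound was 7.53-fold, and 26 were over 2-fold, Pitx1 included. Pitx1 was chosen on this contrast, so its rank is a description.

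**Figure D1:**
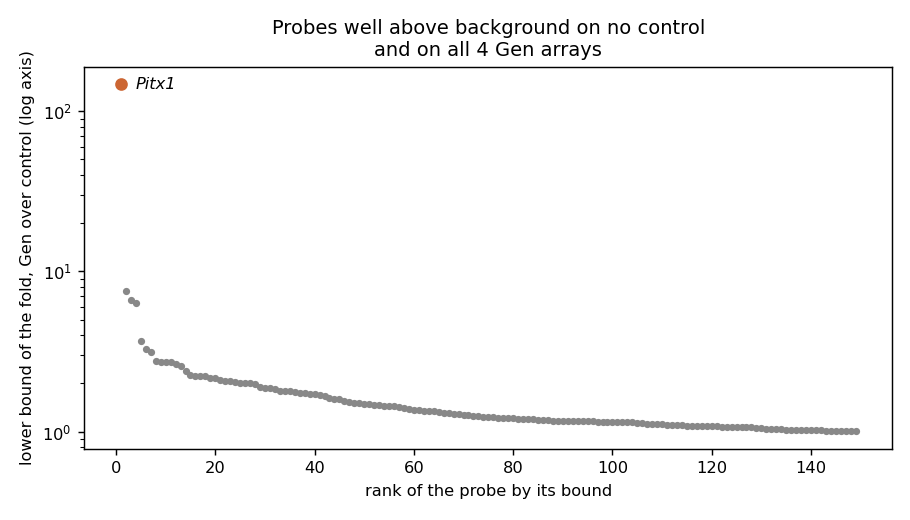
Lower bound of the Gen over control fold (log axis) against rank, for the 149 probes that were detected in none of the controls and in all 4 Gen-treated mice and had a bound above 1. Pitx1 stands at 148-fold (orange), and every other probe is at 7.53-fold or less (grey).

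Among the 4 Gen-treated mice Pitx1 varied by an SD of 1.02 on the log2 scale. Mouse 2 was highest and mouse 1 lowest. Likeness to Pitx1 over the 8 arrays was taken as Pearson r, after signals under 65.9 were raised to that floor. It was sought among 385 named probes with the same pattern of detection. For 290 of them no array passed the floor and no r could be given. The nearest was Sox11, an HMG-box transcription factor, with r = 0.80, followed by Serpind1 (heparin cofactor II) at 0.77, Akr1cl, an aldo-keto reductase, at 0.75, Anxa13, an annexin, at 0.74, and Cdh26, a cadherin, at 0.74. Every control signal of these 5 genes and of Pitx1 lay under the floor, so the controls were tied there. Sox11, Serpind1, Anxa13 and Cdh26 each had a Gen signal under the floor as well. No r was above 0.9. All 5 genes were picked as detected in no control and in all 4 Gen-treated mice, so the r values carry that choice. Within the Gen group not all of them followed Pitx1. Akr1cl read 687, 467, 185 and 81.9 in Gen-treated mice 1 to 4, highest in mouse 1, where Pitx1 was lowest. Serpind1 was highest in mouse 4, at 162, and Sox11 in mouse 3. Anxa13 and Cdh26 were highest in mouse 2, as Pitx1 was. The Sox11 signal was 32.1, 23.4, 15.2 and 19.3 in controls and 81.7, 103, 107 and 51.0 in Gen-treated mice. The bounds of these 5 genes ran from 2.05-fold for Cdh26 to 6.62-fold for Akr1cl.

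Pitx3, the other Pitx member, was detected on all 8 arrays, with groups that overlapped. Its signal was 61.5, 116, 88.9 and 80.6 in controls and 99.8, 115, 83.2 and 81.8 in Gen-treated mice. The lowest value was control 1 and the highest control 2, so the controls covered the whole range of the Gen arrays. The difference was 0.15 (SE 0.21, 95% interval −0.34 to 0.64), and it was −0.10 with normexp background correction.

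**Figure D2:**
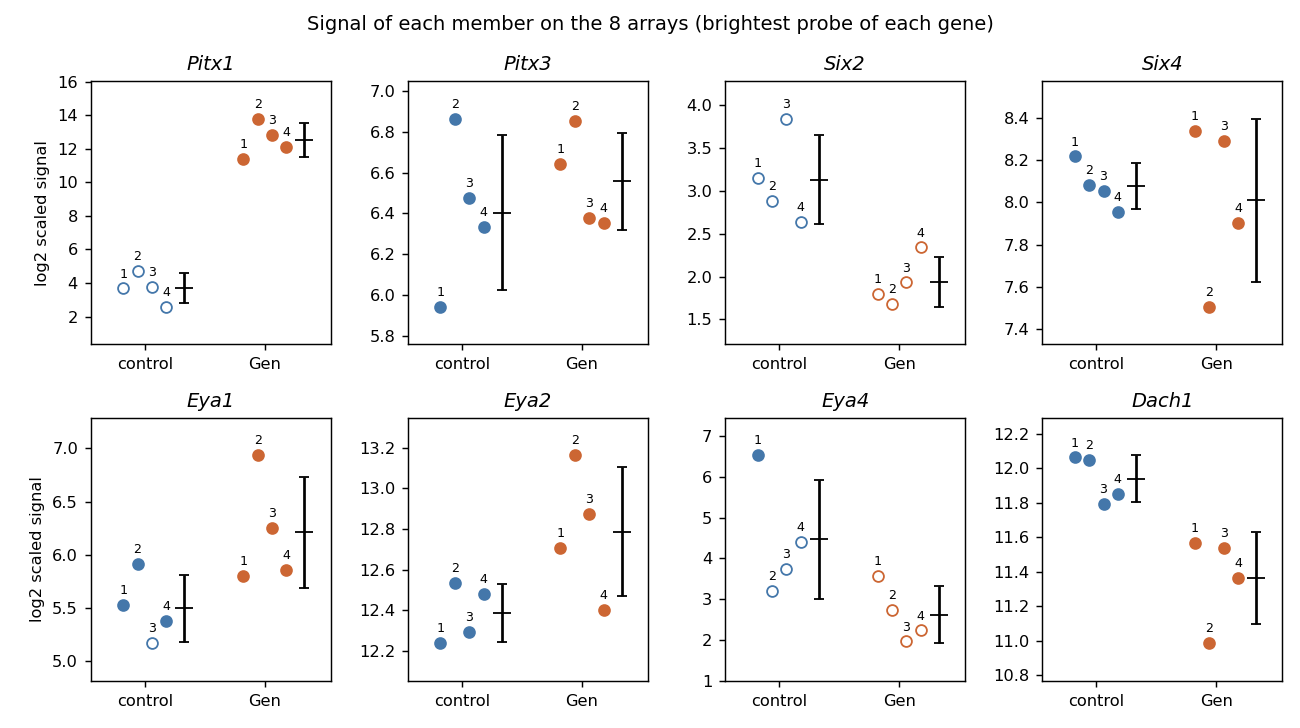
Log2 scaled signal of the brightest probe of each of the 8 members on the 4 control arrays (blue) and the 4 Gen arrays (orange), with replicate numbers. Filled points were well above background and open points were not, the bar is the mean ± SD, and each panel has its own axis. Pitx1 moves from open points at 6.02–26.6 to filled points at 2703–14234, Six2 is open on every array, and Dach1 is lower on every Gen array.

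Neither Six-family member showed a difference that could be measured as a level. Six4, which acts with its paralogs in muscle and kidney development, had signals of 297, 271, 266 and 248 in controls and 323, 182, 313 and 239 in Gen-treated mice. The Gen arrays lay on both sides of the controls, with mouse 2 lowest. The difference was −0.07 (SE 0.20, 95% interval −0.52 to 0.38), turned to 0.17 without scaling between arrays, and the SD was 0.39 in Gen-treated mice against 0.11 in controls. Six2, which keeps nephron progenitors undifferentiated in the kidney, was detected on no array. Its signals were 8.86, 7.35, 14.3 and 6.23 in controls and 3.48, 3.20, 3.81 and 5.06 in Gen-treated mice. Although the groups did not overlap, neither was well above background and no fold is given. The log2 difference of −1.19 lay beside the median of −1.16 over all probes on no array.

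The Eya members were each different. Eya2, which serves with Six-family factors in muscle and sensory organs, had a high signal of 4830, 5933, 5022 and 5713 in controls and of 6686, 9167, 7504 and 5414 in Gen-treated mice. Gen 1, 2 and 3 were above all controls and Gen 4 lay among them, so the groups overlapped. The difference was 0.40 (SE 0.18, 95% interval −0.00 to 0.80), a 1.32-fold ratio of Gen over control, and it was 0.27 without Gen replicate 2 and 0.53 without Gen replicate 4.

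Eya1, needed for the kidney, ear and branchial arches, was dim. The first probe read 46.2, 60.4, 36.0 and 41.6 in controls, of which 3 were detected, and 55.8, 122, 76.2 and 58.1 in Gen-treated mice, all 4 detected. Gen 2 and 3 lay above every control, and Gen 1 and 4 lay between control 1 and control 2. The difference was 0.71 (SE 0.28, 95% interval 0.07 to 1.35), 1.64-fold, and fell to 0.18 with normexp. The second probe was not well above background on any array. The mean of both probes would turn the direction, to −0.23.

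Eya4, known from hearing loss and heart disease in people, had 3 probes, and none was detected on more than 1 array. The first read 92.6, 9.23, 13.4 and 21.1 in controls and 11.9, 6.62, 3.90 and 4.70 in Gen-treated mice. Control 1 alone detected it. The second read 14.9, 15.3, 13.3 and 5.74 in controls and 7.22, 13.1, 6.31 and 23.8 in Gen-treated mice, with Gen 4 alone detected. The third was detected on no array. The array that passed thus differed between the probes, and no fold is given for Eya4.

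Dach1 was the member with a strong signal that was lower in Gen-treated mice at both of its probes. The first probe read 4281, 4232, 3550 and 3701 in controls and 3031, 2026, 2977 and 2635 in Gen-treated mice. All Gen arrays were below all controls, which did not hold without scaling between arrays, and Gen 2 was lowest. The difference was −0.58 (SE 0.16, 95% interval −0.94 to −0.21), a 1.49-fold ratio of control over Gen, and it was −0.34 without scaling between arrays, where the median of all probes was 0.18 rather than −0.06. The second, dimmer probe read 53.5, 97.5, 76.7 and 75.3 in controls and 39.8, 36.6, 48.6 and 19.4 in Gen-treated mice, again without overlap. It was detected on all 4 control arrays and on 3 Gen arrays, and its difference was −1.11 (SE 0.30, 95% interval −1.81 to −0.41). In whole oviduct, fewer cells of a type and less RNA per cell cannot be told apart.

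**Figure D3:**
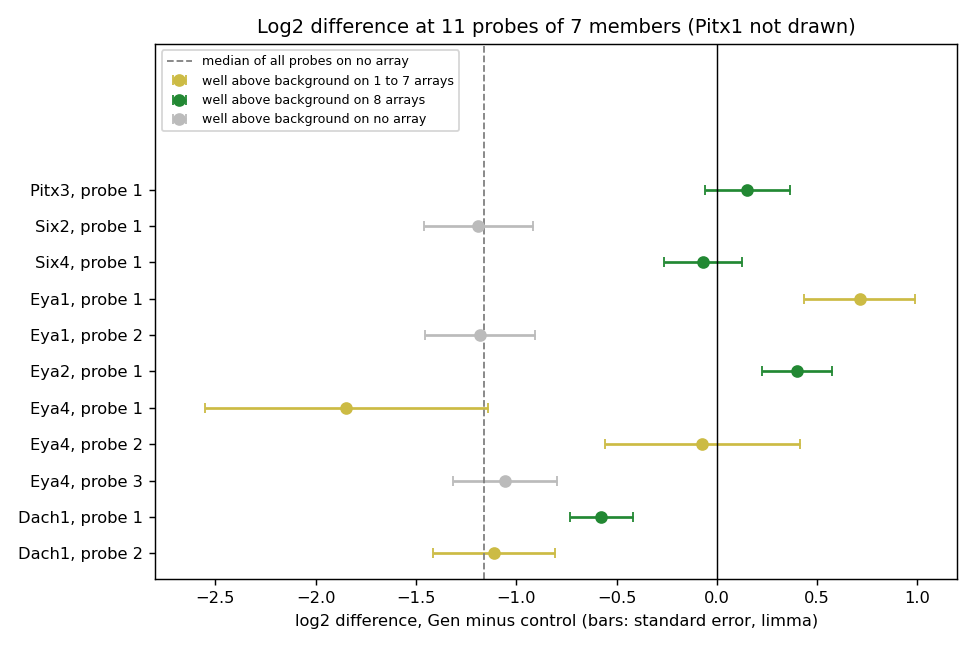
Log2 difference, Gen minus control, with the SE of limma as bars, for the 11 probes of the 7 members other than Pitx1, whose control level is only a limit. Colors give the number of arrays on which a probe was well above background, and the dashed line is the median of −1.16 over all probes on no array. The 3 grey probes lie near that line, while Pitx3, Six4, Eya2 and the first Dach1 probe (green) lie between −0.58 and 0.40.

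Counted over the 8 members, 6 were detected throughout at least 1 group (Pitx1, Pitx3, Six4, Eya1, Eya2 and Dach1), 4 of them on all 8 arrays and Pitx1 in the Gen group alone. By limma with Benjamini-Hochberg adjustment, 1 member was called higher in Gen-treated mice (Pitx1), where 2.17% of all probes were, and 2 were called lower (Six2 and Dach1), where 14.0% of all probes were. The same 3 members were the ones whose groups did not overlap, against 4.51% of probes higher and 18.0% lower. Since the members were chosen on this contrast, nothing is read from these counts. The median difference was 0.04 over the 8 members, against −0.06 over all probes tested. Over the 6 members detected throughout at least 1 group it was 0.28, against 0.02 over all probes that passed the same filter. These medians are descriptions too.

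Gen-treated mouse 2 was at an extreme of all 6 measured members. It was highest of the 4 Gen arrays for Pitx1, Pitx3, Eya1 and Eya2 and lowest for Six4 and Dach1. Over the 24920 probes detected throughout with no missing value, it was highest at 26.8% and lowest at 28.7%. Mouse 4 was at an extreme of these probes more often, highest at 32.1% and lowest at 31.5%. Pitx1 and Eya1 had the same order over the Gen arrays, with mouse 2 first, then 3, 4 and 1. Six4 and Dach1 also shared an order, with mouse 1 first, then 3, 4 and 2. These orders rest on 4 arrays and are descriptions.

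The genes that work with these families were taken from a list of 50 by role, of which 49 had a probe and 36 were detected in all 4 mice of a group. Most of them differed little. Over the 36, the median difference was −0.02 and the range −0.97 to 2.17, beside a median of 0.02 over all probes that passed the same filter. At an adjusted p under 0.05 (limma, Benjamini-Hochberg over 41173 probes) 2 of the 36 were higher and 2 lower, where 2.83% of all such probes were higher and 2.19% lower. Another 4 of the 49 were called lower while detected on no array (Six6, Pax3, Myf5 and Ret), as were 63.6% of all probes on no array, and they have no fold.

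Among the other family members, none of the 3 measured was called. Six5, a paralog of Six4, had a difference of −0.07 (SE 0.14), Eya3, the Eya gene of broad expression, −0.09 (SE 0.13), and Dach2 −0.18 (SE 0.17). None of the 3 measured Pax factors was called. Pax8, a marker of Müllerian duct epithelium, was at 1107 in controls and 915 in Gen-treated mice, a difference of −0.28 (SE 0.17). Pax2 was at −0.38 (SE 0.25). Pax6, the eye regulator, counted as measured only through the Gen group. It read 20.0–30.2 in controls, where no array detected it, and 28.9–56.1 in Gen-treated mice, and no fold is given.

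Cited1, a coactivator that binds CBP and p300 and marks nephron progenitors, was the 1 of 7 measured partners and patterning factors that rose. Its signal was 216, 284, 513 and 298 in controls and 2692, 2913, 695 and 707 in Gen-treated mice. The groups did not overlap, but Gen 1 and 2 stood far above Gen 3 and 4, and control 3 stood above the other controls. Its log2 rise was 2.17 (SE 0.55, adjusted p = 0.0314 by limma), a 4.50-fold ratio. Some markers of ovarian steroidogenic cells were higher too. Of these 9 markers, 4 were higher in Gen-treated mice by the same test (Cyp11a1, Hsd3b1, Lhcgr and Inha), all 9 were detected on at least 1 array, and none was called lower, where 2.17% of all probes were higher. Star was at 1.80 (SE 0.64), Fshr at 0.49 (SE 0.76), Foxl2 at 0.02 (SE 0.27), Cyp17a1 at −0.02 (SE 0.28) and Akr1c18 at −0.39 (SE 0.66), and these were not called. The summed signal of the 9 was 6326, 5305, 29647 and 4354 in controls and 141567, 131791, 32789 and 47327 in Gen-treated mice. Control 3 was thus highest of the controls and Gen 1 and 2 highest of all, as for Cited1, and their part in the Cited1 result was not tested. The nephric factors Sall1 and Osr1 were at −0.47 (SE 0.19) and −0.44 (SE 0.30), and neither was called.

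**Figure D4:**
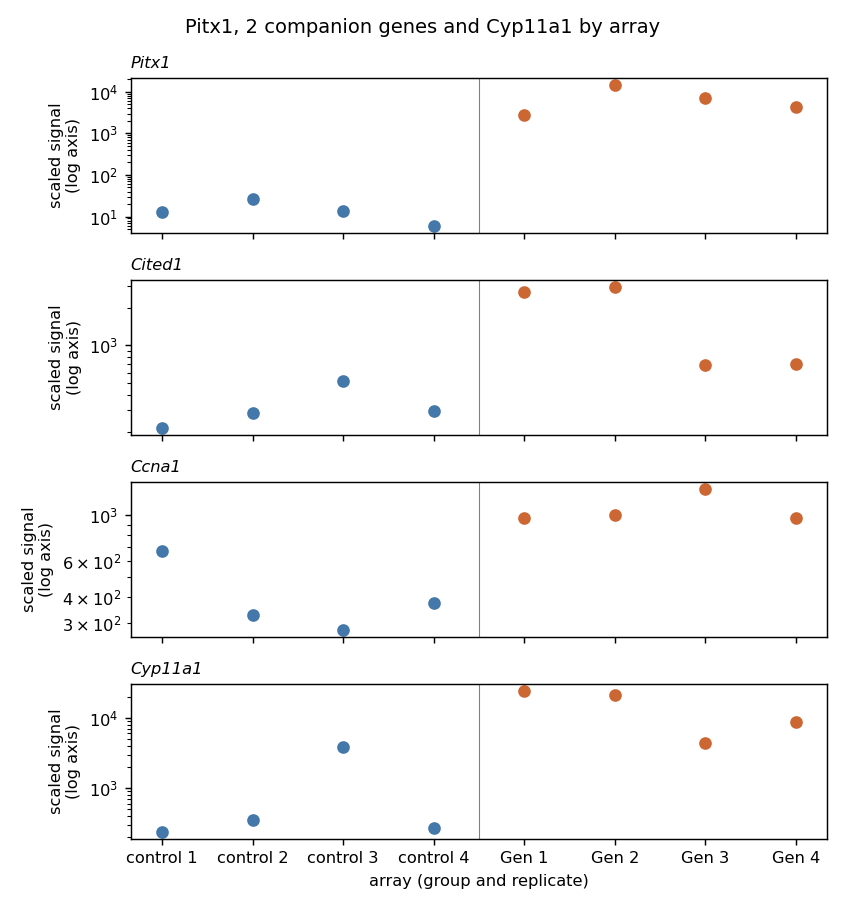
Scaled signal (log axis, one scale per panel) of Pitx1, of the companion genes Cited1 and Ccna1 and of Cyp11a1, the side-chain cleavage enzyme of steroidogenic cells, on each array. Control arrays are blue and Gen arrays orange. Cited1 and Cyp11a1 are both highest on Gen 1 and 2 and, among controls, on control 3. Pitx1 is highest on Gen 2 and 3.

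Among the 8 measured genes listed as targets, 1 rose and none fell. Ccna1, which encodes cyclin A1 and has been described as a target of Six-family and Eya proteins, read 668, 329, 278 and 373 in controls and 971, 1002, 1335 and 966 in Gen-treated mice. All Gen arrays were above all controls, with control 1 nearest to them. Its log2 rise was 1.45 (SE 0.27, adjusted p = 0.0236 by limma), 2.73-fold. Ccnd1, another cyclin tied to Six-family and Dach proteins, was at −0.31 (SE 0.23). Hoxc10, a hindlimb Hox gene downstream of Pitx1, was at 114 in controls and 65.4 in Gen-treated mice, −0.80 (SE 0.31), and was not called, with an adjusted p of 0.134 by limma. Tbx4, the hindlimb T-box gene and a known target of Pitx1, was detected on 1 control array at its brighter probe and on 1 Gen array at the other. Hoxc11 had no probe under that name. The pituitary target Pomc was at 852 and 884, a difference of 0.05 (SE 0.15). The myogenic factors were near background, with Myf5 and Myog detected on no array and Myod1 and Myf6 on 3 and 2 Gen arrays. In Gen-treated mice Myod1 read 19.1–25.9 and Myf6 17.3–19.7, under the lowest detected signal of any control array (28.5). Markers of skeletal muscle summed to 14352–23736 in controls and 10644–14839 in Gen-treated mice, most of it Acta1, which was not called. Of these 8 markers, Myh4 and Tnni2 were called lower, where 14.0% of all probes were. Among probes detected in all 4 mice of a group, 2.19% were called lower. Tnni2 was detected on all 8 arrays, at 4861 in controls and 2651 in Gen-treated mice, a difference of −0.87 (SE 0.25). Myh4 was dim, detected on 1 control array and 2 Gen arrays.

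All 15 cofactors and substrates were measured, and 2 of them fell. Tle1, a Groucho corepressor that Six-family and other homeodomain proteins recruit, read 13810, 21339, 20443 and 19171 in controls and 9807, 10136, 8659 and 8990 in Gen-treated mice, without overlap. It fell by 0.97 (SE 0.16, limma adjusted p = 0.0236), a 1.97-fold ratio of control over Gen. The second probe was at −0.99 and the third at 0.23 (SE 0.16), so the 3 probes did not run the same way. Gnai2, an inhibitory G protein subunit of the family that binds Eya2, read 15693, 17092, 15432 and 14891 in controls and 11856, 11333, 10434 and 10791 in Gen-treated mice. It fell by 0.51 (SE 0.10, limma adjusted p = 0.0236), 1.42-fold. Without scaling between arrays it fell by 0.27 and was no longer called, with an adjusted p of 0.611 by limma, and the call of Tle1 was lost there too (adjusted p = 0.104 by limma). Skil, a relative of Dach in the Ski family, was at 0.60 (SE 0.21) and was not called at its brighter probe, with an adjusted p of 0.0934 by limma, and was called at the other (0.54, limma adjusted p = 0.0371). The calls of Cited1, Ccna1, Tle1 and Gnai2 were each lost without Gen replicate 1, without Gen replicate 2 and without Gen replicate 3, and with quantile normalization, though none changed direction. That of Cited1 was also lost without control replicate 1, 2 or 4, with normexp and with the filter on dim probes (adjusted p between 0.0597 and 0.112 by limma), and that of Gnai2 without control replicate 1 and with normexp.

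**Figure D5:**
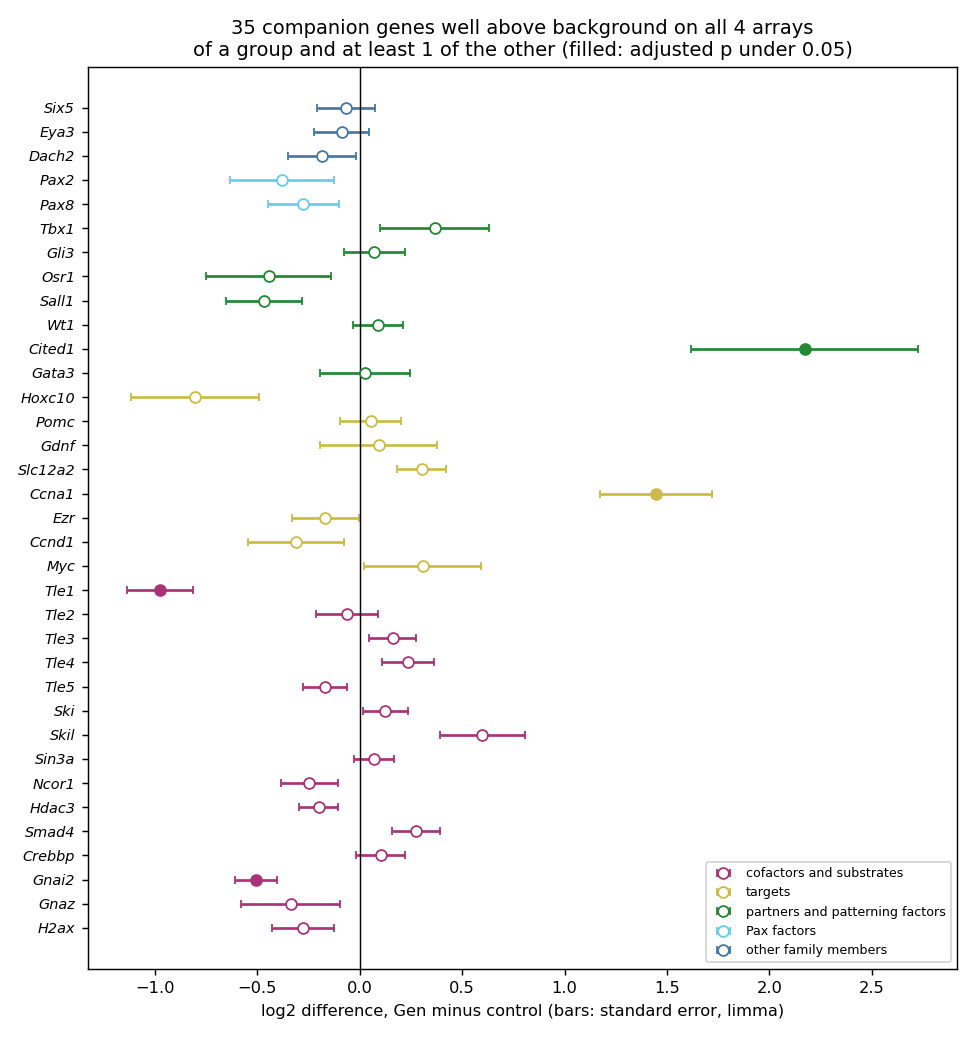
Log2 difference, Gen minus control, with the SE of limma as bars, for the companion genes detected in all 4 mice of a group, other than Pax6, colored by role. Filled points had an adjusted p under 0.05. Cited1 at 2.17 and Ccna1 at 1.45 lie to the right, Tle1 at −0.97 and Gnai2 at −0.51 to the left, and the other genes between −0.80 and 0.60.

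Markers of stratified squamous epithelium were given beside the homeodomain factors because that tissue lines the lower tract. Of 9 such markers, Krt6a, Dsg3, Ivl and Krtdap were detected on no array, and of these Ivl and Krtdap were called lower, as were 63.6% of all probes on no array. Krt4 was detected in no control, at 8.45–15.9, and on 3 Gen arrays, with signals of 19.4, 117, 24.7 and 17.5 in Gen-treated mice 1 to 4, and was not called. In mice 1, 3 and 4 its signal was under the lowest detected signal of any control array (28.5). Krt5 was at 0.47 (SE 0.48), Krt14 at 0.42 (SE 0.37), Trp63 at −0.09 (SE 0.15) and Krt13 at −0.31 (SE 0.17), none of them called. The sum of all 9, most of it Krt13, was 2846–3758 in controls and 2508–3381 in Gen-treated mice. The ranges overlapped. The part of these cells in the results was not tested.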

How the data were processed

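Oviduct RNA from 4 control and 4 Gen-treated mice was measured on 1-color Agilent arrays, grouped by the titles of the samples. The dose, ages and times came from the methods. The scanner output deposited by the authors came from Agilent Feature Extraction 9.5. Its processed signal was used here, a linear intensity that the software adjusts for background within an array and leaves unscaled between arrays. The series table repeats these intensities, equal at 45018 spots per array. The later Rosetta Resolver step was not applied.

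The 1639 control spots and outlier spots were left out, log2 signals of a probe were averaged, and arrays were scaled to the mean of their 75th percentiles. Groups were compared with limma 3.58.1 in R 4.3.3 (lmFit and eBayes), with the data.table package (version 1.17.8) and Benjamini-Hochberg adjustment over 41173 probes, without a filter on dim probes. Figures used matplotlib 3.10.9. The steps were tested on simulated data. Gene names came from tables of GRCm38.p6 by accession for 22951 probes and by name or synonym for 9768, and were kept as in the files for 8455.

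The members, lists and tests were chosen with earlier results of these data known. All members were named with every probe, the brightest first. Companion genes were named where called and, per role, up to 3 with the largest difference among those well above background on all 4 arrays of a group. Others named, chosen after their values were seen, are Tbx4, Hoxc11, Pomc, Myod1, Myog and Myf6. Well above background is the scanner's flag. The alternatives were quantile normalization, no scaling, a percentile over detected probes, normexp (offset 50), keeping outlier spots, a floor, a dim-probe filter, a trended robust fit, the methods' t-test, a replicate block, averaging the probes of a gene, and leaving out each array. The number of arrays limits the precision. Results for some other genes of these families are not reported here.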

Additional observations from a re-analysis of the deposited data

Results flagged for a closer look

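Of 40 groups of 4 arrays examined, 2 had 1 array far from the others, and chance would mark about 1 in 20. At the second Eya4 probe, control 4 had a signal of 5.74, with the nearest control at 13.3, and none of these controls was well above background. For Ccna1, Gen 3 had a signal of 1335, with the nearest Gen array at 1002.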

How the results depend on the processing

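The number of members at an adjusted p under 0.05 by limma (3) was 1, Pitx1, with quantile normalization, no scaling, normexp, the filter on dim probes, the floor and the replicate block, and 0 by the methods' t-test, where 3 had an unadjusted p under 0.05. Leaving out 1 array gave 0–2, with 0 without Gen replicate 3 (3 unadjusted). The members were chosen on this contrast, so these counts are a description. The number of companion genes (8) was 0 with quantile normalization (13 unadjusted), the floor (10), the replicate block (11) and the methods' t-test (14), 2 without scaling and with normexp, and 3 with the filter on dim probes. Leaving out 1 array gave 0–7, with 0 without Gen replicate 1 (11 unadjusted), 2 (13) or 3 (11) and 2 without control replicate 1. Over all probes the number called fell too. It was 6674 in the main fit, 178 with quantile normalization, 20 with the floor, 1 with the replicate block and 0 by the methods' t-test. It was 640 without scaling, 251 with normexp and 321 with the filter on dim probes. Without Gen replicate 1, 2 or 3 it was 3, 2 and 1, and without control replicate 1 it was 97. The number of members whose groups did not overlap (3) was 3–5 with 1 array left out, with 5 without control replicate 2, where Eya1 and Eya4 were added. It was 2 with quantile normalization, the filter on dim probes and the floor, where Six2 was lost, and without scaling Eya1 took the place of Dach1. The bound for Pitx1 was 59.1-fold with normexp, 89.5 with the floor and 110–192 with 1 array left out. No called value changed direction under any alternative, although the 5 genes called lower that were detected on no array (Six2, Six6, Pax3, Myf5 and Ret) had no difference left with the floor, and the cause of each lost call was not tested. Same-numbered control and Gen arrays deviated together at r = −0.08, 0.11, −0.02 and −0.18. Arrays with unlike numbers ran from −0.23 to 0.38. No pairing by number was seen, but these few values cannot exclude one, and the paper compared littermates. Signal over background limits Six2, Eya4, the second Eya1 probe and the control level of Pitx1.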
